A study of Rattus norvegicus with 10 samples.

Results

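The genes described here are 4 members of the plasminogen activator system: Plau, Plat, Plaur and Serpine2. They were taken as every probe set that the platform annotation ties to 1 gene alone, that gene being in the list, which gave 6 probe sets for 4 of 14217 named genes. Expression was measured in A7r5, a rat aortic smooth muscle line, on single-colour Affymetrix rat arrays, with 2 arrays in each of 5 groups. The groups were stably transfected with an empty vector, with wild-type human BMPR2, or with BMPR2 labelled as carrying a 2579-2580delT mutation in the cytoplasmic tail (CD mutant), a C994T mutation in the kinase domain (KD mutant) or a T354G mutation in the extracellular domain (ED mutant). The labels name no change to the rat cells' own Bmpr2, and all cells were normoxic and harvested at about 50% confluence in 10% serum. The titles and sources of the empty vector samples call them native A7r5, while their descriptions and characteristics give a stable empty vector. Whether these cells went through transfection and selection as the others did therefore depends on which label holds. The labels name neither the promoter of the construct nor the number of clones, nor whether paired arrays stem from different cultures. P-values thus reflect only array-to-array spread, which may be technical.

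Plasminogen circulates as an inactive precursor and becomes plasmin when an activator cuts it. Plasmin dissolves fibrin and degrades matrix, and in the vessel wall it takes part in smooth muscle migration and remodelling. Plau encodes urokinase, the activator that works at the cell surface, and Plaur its receptor, which is anchored to the membrane by a lipid. Plat encodes tissue-type plasminogen activator, which acts mainly on fibrin. Serpine2 encodes protease nexin 1, a serpin that inhibits thrombin, urokinase, tissue-type activator and plasmin. Bone morphogenetic proteins signal through BMPR2 to Smad transcription factors, and BMPR2 mutations underlie heritable pulmonary arterial hypertension.

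The values are log2 summaries made with RMA by the authors, so a difference of 1 is a 2-fold difference. A probe set was tested when at least 2 of the 10 arrays reached log2 4.82, the 40th percentile of all values, and a change means an adjusted p under 0.05 in limma over the 22502 probe sets that did. Of the 6 member probe sets 3 were tested: the brighter one of Plaur, and those of Plat and Serpine2, which passed that level through the KD mutant arrays (one empty vector array also reached it for Plat). Both Plau probe sets and the dimmer one of Plaur stayed below it on all 10 arrays and are given as levels with no test. No detection calls were used here, so a dim probe set cannot be called absent.

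The 2 KD mutant arrays stood apart from the other 8, with correlations across probe sets of 0.709 to 0.719 against 0.992 to 0.996 among those 8. Smooth muscle markers averaged 8.3 to 8.48 on this pair and 6.12 to 6.28 on the others, and 8 and 6 of 10 respectively lay above log2 4.82. Tagln, Cnn1, Acta2, Tpm2 and Des were brighter on the KD mutant arrays (Tagln at 11.33 against 4.98), Smtn was dimmer (8.34 against 10.41), Cald1 was bright on both (11.77 and 10.4), and Myh11 and Lmod1 lay within the range of the 8. Myocd was dim on both, at 4.68 and 4.26. Epithelial markers averaged 5.32 to 5.35 against 6.92 to 7.17, with 5 and 7 of 9 above log2 4.82. Fibroblast markers averaged 7.55 to 7.65 against 4.62 to 4.86, with 4 and 3 of 7 above it. Col1a1, Col1a2, Col3a1 and Thy1 were brighter on the KD mutant arrays (Col1a2 at 13.62 against 3.88), whereas Dcn (3.19 against 4.5), Pdgfra (4.25 against 5.55) and Lum (2.56 against 2.91) were dimmer. None of 6 endothelial markers had a mean above that level on either set, and macrophage and leukocyte markers averaged 4.82 against 5.12 to 5.29. Of this last list Cd14 was brighter on the KD mutant arrays (8.87 against 5.8). All its other markers were dimmer there, such as Lyz2 (5.06 against 6.53). On the 8 arrays, smooth muscle markers were thus bright in part, and so were epithelial ones. Cdh1 (9.71) and Krt18 (11.47) were bright, Cldn7 (5.07) and Esrp1 (5) lay close to log2 4.82, and Epcam (3.78) and Cldn4 (3.36) lay below it. Krt18 (9.31) and Krt8 (8.1) were also bright on the KD mutant arrays. Where a group holds a mixture of cells, a smaller number of cells of one type and less RNA per cell cannot be told apart.

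Upstream sequence is shown for Plaur, whose brighter probe set passed the test between empty vector and receptor constructs by the chosen settings. Serpine2 and Plau are shown beside it, as 1 gene that was bright on the KD mutant arrays and 1 that was dim throughout. Each run gives the 250 bases before the annotated start, 5′ to 3′ on the strand of the gene, from RefSeq for the rat build GRCr8, and these 3 of the 4 members had an entry. Plaur lies on the plus strand at chr1:89181113-89181362, Serpine2 on the minus strand at chr9:88637203-88637452 and Plau on the minus strand at chr15:3511988-3512237. Capitals mark matches on either strand to the AP-1 motif TGACTCA, the Smad palindrome GTCTAGAC, the BMP-Smad motif GGCGCC or the GC box GGGCGG.
Plaur: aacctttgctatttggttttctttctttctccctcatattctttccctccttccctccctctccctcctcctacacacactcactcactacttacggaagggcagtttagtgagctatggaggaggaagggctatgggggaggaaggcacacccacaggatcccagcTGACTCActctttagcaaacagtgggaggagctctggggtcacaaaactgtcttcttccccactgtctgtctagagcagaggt
Serpine2: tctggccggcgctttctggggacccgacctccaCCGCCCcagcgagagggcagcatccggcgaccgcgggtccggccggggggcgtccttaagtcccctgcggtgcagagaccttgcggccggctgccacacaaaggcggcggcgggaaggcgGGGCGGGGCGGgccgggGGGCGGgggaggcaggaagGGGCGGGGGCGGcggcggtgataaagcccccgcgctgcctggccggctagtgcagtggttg
Plau: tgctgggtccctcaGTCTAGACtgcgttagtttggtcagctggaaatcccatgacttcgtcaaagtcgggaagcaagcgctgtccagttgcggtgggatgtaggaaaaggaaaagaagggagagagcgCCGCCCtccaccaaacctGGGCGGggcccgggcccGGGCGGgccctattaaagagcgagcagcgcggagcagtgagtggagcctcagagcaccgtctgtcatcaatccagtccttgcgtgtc
The Plaur window held 1 match to the AP-1 motif, beginning 83 bases before the start, a motif found in 4.05% of 33469 rat windows of this length, and none to the other 3. The Serpine2 window held 6 GC boxes, of which 2 overlap by a base, and the Plau window 3, where 30.5% of all windows hold at least 1. Plau also had a match to GTCTAGAC, beginning 236 bases before its start, which 0.173% of windows share. GGCGCC, present in 8.69% of windows, was in none of these 3. The share of G and C was 51.2% for Plaur, 76.8% for Serpine2 and 60% for Plau, against a median of 51.2%. A match describes letters only and shows no binding.

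The receptor gene Plaur was bright in every group and was lower on each array with a receptor construct than on either array with empty vector. Its brighter probe set, 1387269_s_at, read 9.99 and 9.87 with empty vector, 9.43 and 9.25 with wild-type BMPR2, 9.21 and 9.26 with CD, 9.51 and 9.54 with ED, and 9.23 and 9.2 with KD. The empty vector arrays were thus the highest pair, and no array of another group overlapped them. In 7.32% of all tested probe sets the 6 arrays of wild type, CD and ED likewise lay below both empty vector arrays, and in 4.76% all 8 did. This probe set stood at percentile 95.7 of all probe sets on the 8 arrays and at 92.6 on the KD mutant arrays.

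Averaged over wild type, CD and ED, Plaur fell from 9.93 to 9.37, a log2 difference of -0.56 or 1.48-fold (95% interval -0.75 to -0.38, SE 0.0842, adjusted p = 0.0263 in limma, the 24th lowest p of 22502). It was the 1 of 3 tested member probe sets to change in this comparison, in which 0.2% of all tested probe sets were called and 0.0622% fell. By group, the CD mutant mean of 9.23 ± 0.032 (SD, n = 2) lay 0.7 below the 9.93 ± 0.084 of empty vector in log2 units, a 1.62-fold fall (SE 0.103, adjusted p = 0.0372), where 0.111% of probe sets were called and 0.0578% fell. Wild type, at 9.34 ± 0.13, differed by -0.59 (95% interval -0.82 to -0.36) without passing the test (adjusted p = 0.126), and 0.0133% of probe sets passed there. The ED mutant, at 9.52 ± 0.025, differed by -0.41 (95% interval -0.63 to -0.18, adjusted p = 0.125), where 0.529% passed. These 3 comparisons share their empty vector arrays, so their directions are not independent. If those arrays are native cells, as their titles have it, receptor and transfection cannot be told apart here. A test over all 4 groups at once, limma's moderated F-test, called Plaur (adjusted p = 0.0408) and neither Plat (adjusted p = 0.503) nor Serpine2 (adjusted p = 0.392), with 0.369% of probe sets called.

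The calls of Plaur in the average, the CD mutant and the F-test were each lost when any 1 of their arrays was left out. Without any 1 of the 8 arrays, the averaged difference was -0.62 to -0.51 and the adjusted p 0.0565 to 0.568, the highest without empty vector replicate 1. Without any 1 of its 4 arrays, the CD mutant's difference was -0.76 to -0.64 with an adjusted p of 0.165 to 0.502. The CD mutant's call was also lost with no filter (adjusted p = 0.0602), with a replicate block (adjusted p = 0.0593) and when only its 4 arrays were fitted (adjusted p = 0.139). The F-test's call was lost with no filter and with the block as well. With an intensity trend and robust variance, wild type and the ED mutant passed as well (adjusted p = 0.00905 and 0.0151 in limma). Poly-A control transcripts averaged 7.89 with empty vector, 7.91 with wild type, 8.59 with CD and 8.26 with ED. Their part in the Plaur differences was not tested. The epithelial marker list averaged 6.93, 6.98, 6.92 and 7.16 in the same order, and the smooth muscle list 6.18, 6.25, 6.21 and 6.23.

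Between the CD or ED mutant and the wild-type receptor, no difference in Plaur passed the test. The CD mutant lay -0.11 from wild type (95% interval -0.33 to 0.12, adjusted p = 1), with overlapping arrays, and 0% of probe sets were called there by limma, with 784 at an unadjusted p under 0.05. The ED mutant lay 0.18 above wild type (95% interval -0.04 to 0.41, adjusted p = 0.739), where 0.164% were called, and its arrays were both higher. The share of probe sets with pairs of arrays so separated was not counted. It lay 0.29 above the CD mutant (95% interval 0.06 to 0.51, not adjusted for the number of probe sets; adjusted p = 0.396, with 0.351% called). The order of means was thus empty vector, ED, wild type, CD and KD, and of these neighbours, the first pair differed by more than the arrays' spread without passing the test and the CD and KD arrays overlapped.

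**Figure D1:**
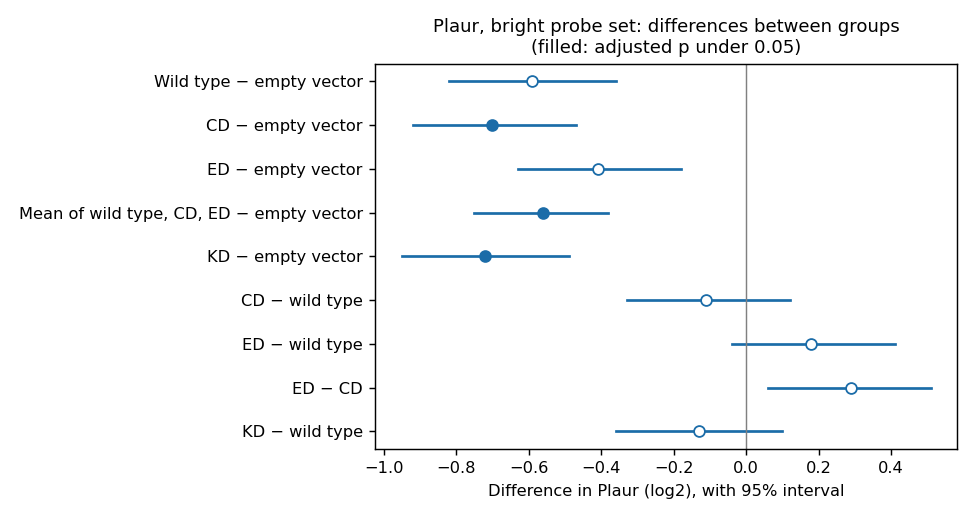
Differences in log2 RMA value between groups for the brighter Plaur probe set (x axis), 1 row per comparison, with limma's 95% interval as a line; filled points have an adjusted p under 0.05. All 5 comparisons with empty vector lie below 0, from -0.72 to -0.41, and the intervals of the CD, ED and KD mutants against wild type include 0.

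On the KD mutant arrays the Plaur level was 9.21 ± 0.021 (SD, n = 2), lower than empty vector by 0.72 in the deposited values (adjusted p = 2.93e-05). This comparison called 89.7% of all probe sets, so the call is near the background. The median log2 difference over all tested probe sets was -0.556 there, and 55.1% were called lower. The difference from empty vector was -1.28 after quantile normalization and -0.34 once every array was centred at its median, and both passed. Against wild type the sign depended on the scale: -0.13 as deposited (adjusted p = 0.249), -0.71 after quantile normalization (adjusted p = 2.52e-05) and 0.27 after centring (adjusted p = 0.0345).

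The dimmer Plaur probe set, 1371286_at, did not follow the bright one. It read 4.18 and 4.29 with empty vector, 4.47 and 4.44 with wild type, 4.56 and 4.43 with CD, 4.48 and 4.45 with ED, and 3.96 and 3.79 with KD. Here the empty vector arrays were lower than the 6 of wild type, CD and ED, by 0.24 on average, all below log2 4.82. The share of all probe sets in that order was not counted. With no filter on dim probe sets, this difference did not pass (adjusted p = 0.48 in limma). The transcripts that each probe set detects were not compared here.

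Urokinase itself was dim in all 5 groups. The Plau probe set 1398287_at read 3.71 and 3.72 with empty vector, 3.92 and 4.02 with wild type, 4.25 and 3.8 with CD, 3.94 and 3.77 with ED, and 3.01 and 3.06 with KD. The second, 1387675_at, read 3.39 and 3.65, 3.92 and 3.83, 4.12 and 3.72, 3.61 and 3.69, and 3.06 and 3.09 in the same order. By the first the 6 arrays of wild type, CD and ED all lay above empty vector, whereas by the second the ED mutant overlapped it. The share of all probe sets with the former order was not counted. In either set of arrays both stood between percentiles 9.9 and 17.8 of all probe sets. With no filter the averaged differences from empty vector, 0.23 and 0.29, did not pass (adjusted p = 0.648 and 0.491 in limma), and differences at such low signal are compressed by RMA.

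Plat, the tissue-type activator, was bright on the KD mutant arrays and dim elsewhere. Its probe set read 9.9 and 9.94 on the KD mutant arrays, against 4.66 and 4.99 with empty vector, 4.59 and 4.21 with wild type, 4.51 and 4.68 with CD, and 4.16 and 4.51 with ED. Both KD mutant arrays stood above every other array, as they did for 34.6% of tested probe sets. Against wild type, Plat showed a log2 difference of 5.52 (SE 0.163), and of 5.38 against the mean of the other 4 groups, a comparison that called 91.5% of probe sets. The range of the difference from wild type over the 7 other settings was 5.24 to 5.91. Its percentile among all probe sets was 95.3 with the KD mutant and 31.4 elsewhere.

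Serpine2, the inhibitor of both activators, showed the same split. It read 10.27 and 10.34 on the KD mutant arrays, and 4.56 and 4.16 with empty vector, 4.43 and 4.15 with wild type, 4.59 and 4.54 with CD, and 3.76 and 4.15 with ED. The lowest KD mutant array lay far above the highest other one, 4.59. The difference from wild type was 6.01 (SE 0.162) and ran from 5.76 to 6.41 over the 7 other settings. Its percentile was 96.6 with the KD mutant and 26.1 elsewhere.

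Plat and Serpine2 could be tested only because the KD mutant arrays were bright, so a call in that direction was fixed by the filter and is not given as a result. The comparison of KD mutant with wild type called 89.6% of all tested probe sets, 34.5% as higher. As a description of size, 1.19% of probe sets were higher by at least the 5.38 of Plat against the other 4 groups and 0.684% by at least the 6.01 of Serpine2. Both lay below log2 4.82 in the other groups, with the exception of 1 empty vector array for Plat, so the sizes were not measured exactly. On the same 2 arrays the smooth muscle and fibroblast lists had higher means, with single markers of each going either way. The epithelial list had a lower mean, and all its markers were dimmer there but Cldn4, which lay within the range of the others (3.41 against 3.24 to 3.51). Poly-A controls averaged 6.95 there and 7.89 to 8.59 in the other groups, and hybridization controls 10.44 there and 11.22 to 11.32 in the other groups. The part of these lists and controls in the Plat and Serpine2 differences was not tested, and the construct and the arrays' other differences cannot be told apart.

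**Figure D2:**
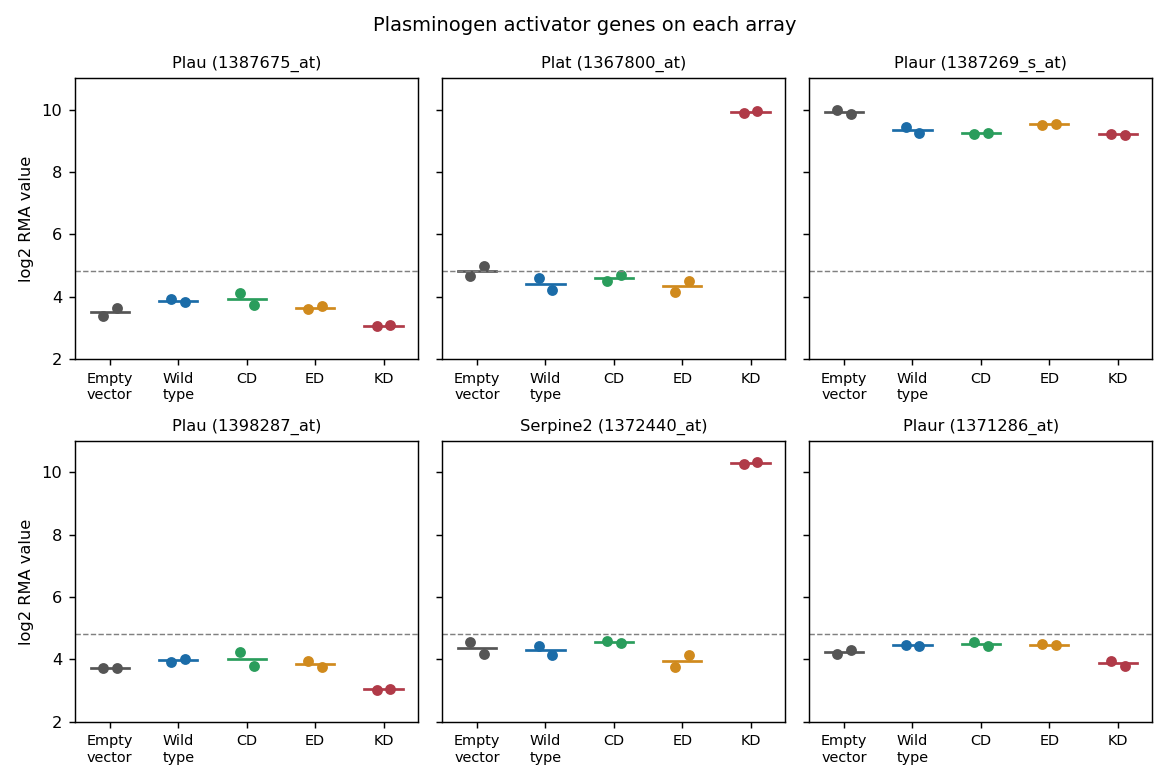
The log2 RMA value (y axis) of each of the 6 member probe sets on every array, 1 point per array and a line at the group mean of 2 arrays; the dashed line is the filter level of log2 4.82. Plat and Serpine2 lie near 10 on the KD mutant arrays and near the dashed line or below it elsewhere, the bright Plaur probe set is highest with empty vector, and both Plau probe sets lie below the line throughout.

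**Figure D3:**
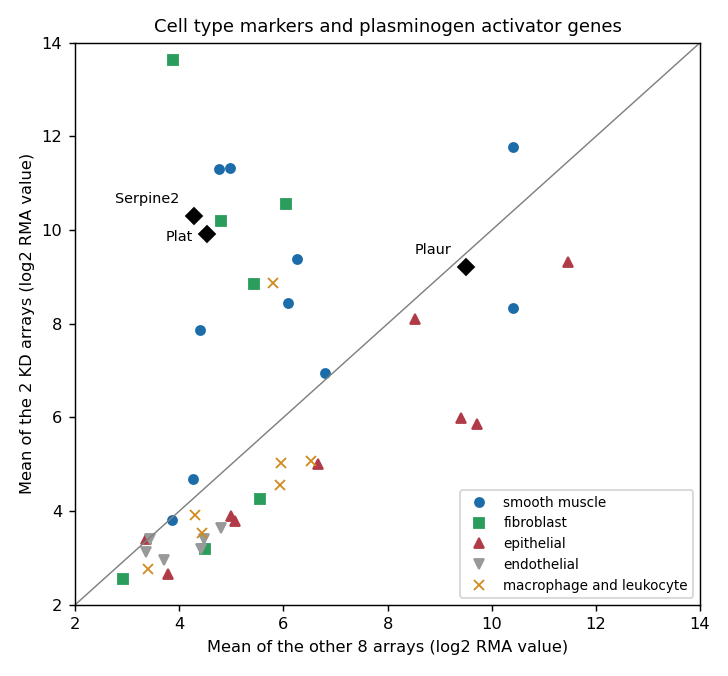
Mean log2 RMA value on the 8 other arrays (x axis) and on the 2 KD mutant arrays (y axis) for the markers of 5 cell types and, as black diamonds, 3 member probe sets; the grey line is equality. Plat and Serpine2 lie above the line beside several smooth muscle and fibroblast markers, others of which lie on it or below, and Plaur lies near the line.

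Outside the KD mutant, no difference in Plat or Serpine2 passed the test. Plat differed from empty vector by -0.42 with wild type (95% interval -0.78 to -0.07, adjusted p = 0.676), -0.23 with CD (adjusted p = 0.773) and -0.49 with ED (95% interval -0.85 to -0.13, adjusted p = 0.254). The wild type and ED arrays lay below both empty vector arrays and the CD arrays overlapped them. Serpine2 was lower in the ED mutant than in the CD mutant by -0.61 (95% interval -0.97 to -0.26), with both arrays lower, and this did not pass over all probe sets (adjusted p = 0.198). Its differences from wild type were 0.28 with CD (adjusted p = 1) and -0.34 with ED (adjusted p = 0.682). These values lie near or below the filter level. The share of all probe sets with pairs of arrays separated in these ways was not counted, so such separation is a description only.

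The genes whose levels followed each member most closely over the 8 arrays outside the KD mutant were read among 12037 named genes, as a description. For Plaur they were Eed, a subunit of a Polycomb complex (r = 0.995), Pdia3, a disulfide isomerase of the endoplasmic reticulum (r = 0.988), and Id1, an inhibitor of DNA binding (r = 0.987). Id1 averaged 10.96 with empty vector and 10.51, 10.44 and 10.64 in wild type, CD and ED. For Plat they were Igsf5, Cramp1 and Hoxa7 (r = 0.978, 0.955 and 0.946), for Plau, by its brighter probe set, Smox, Rasa4 and Olfml1 (r = 0.988, 0.985 and 0.981), and for Serpine2, Supv3l1, Zc3h6 and Speg (r = 0.981, 0.964 and 0.959). The number of genes with r over 0.9 was 103 for Plaur, 10 for Plat, 11 for Plau and 30 for Serpine2. How many of the 12037 genes would exceed that r by chance over 8 arrays was not counted. Over these arrays Plat (4.16 to 4.99), Plau (3.71 to 4.25) and Serpine2 (3.76 to 4.59) lay near or below the filter level. Whether their r values exceed what noise at such low signal gives was not tested. The 8 arrays share their 4 groups and come from 1 deposited table.

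Of the wider plasmin pathway, 76 genes were listed in 4 roles, 67 were on the array with a probe set of their own and 53 were tested. Plg, plasminogen itself and named after its values were seen, averaged 4.8 with empty vector, 4.98 with wild type, 4.93 in CD, 4.61 in ED and 3.76 in KD. In the average of wild type, CD and ED against empty vector 1 of 53 rose and 0 fell, and the median was -0.05, where 0.191% of 12040 genes rose, 0.0997% fell and the median was -0.01. The gene that rose was Fgb, the beta chain of fibrinogen, from which the fibrin cut by plasmin is formed. Fgg and Fga, its gamma and alpha chains, were named after their values were seen and did not follow. Fgg differed by 0.14 (adjusted p = 0.815 in limma) and the untested Fga by -0.1. Fgb read 4.88 and 4.98 with empty vector, close to the filter level, 6.03 and 5.63 with wild type, 5.47 and 5.58 with CD, 6.51 and 6.48 with ED, and 3.39 and 3.65 with KD. All 6 arrays of wild type, CD and ED lay above empty vector. The share of probe sets in that order was not counted, while the reverse order held in 7.32% of those tested. The averaged rise was 2.03-fold (log2 difference 1.02, SE 0.114, adjusted p = 0.0079), and was lost without empty vector replicate 1 (adjusted p = 0.308) or 2 (adjusted p = 0.0887). Fgb was also higher in the ED than in the CD mutant, by 0.97 (adjusted p = 0.011), where 0.507% of the 12040 genes changed. That call was lost without any 1 of these 4 arrays. By group, Fgb rose in the ED mutant by 1.56 over empty vector (adjusted p = 0.000981), where 0.706% of the 12040 genes changed. The rise kept its size without any 1 of those 4 arrays. Fgb did not pass in wild type (adjusted p = 0.126) or the CD mutant (adjusted p = 0.207).

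Against wild type, the KD mutant arrays had 25 of the 53 pathway genes higher and 27 lower, a median of -0.37, beside 36.1% higher and 52.8% lower among all 12040 genes with a median of -0.42. After centring each array 25 were higher and 22 lower of 52 tested, and after quantile normalization 22 and 24 of 52. Of the inhibitors 2 of 8 were higher and 6 lower, of the proteases 3 and 6 of 10, of the binding, cofactor and clearance genes 12 and 9 of 21, and of the substrates and responders 8 and 6 of 14. The rises named by rule were F2r, the thrombin receptor, by 7.13 on the log2 scale, Fn1, fibronectin, by 6.43, Ltbp1, which binds latent TGF-beta in matrix, by 6.31, and Ctsb, the lysosomal protease cathepsin B, by 6.1. The falls named were Sorl1, a sorting receptor, with a log2 difference of -4.45, Fgb with -2.31, Spint2, a Kunitz-type protease inhibitor, with -2.19, and Hgfac, the activator of hepatocyte growth factor, with -2.02. F2r and Ltbp1 lay below log2 4.82 in every other group (F2r at 3.51 to 3.66, Ltbp1 at 3.4 to 3.6) and were tested only through the KD mutant arrays, so their sizes were not measured exactly and their calls are not given. Fgb and Hgfac lay below it in the KD mutant, at 3.52 and 4.77. Adjusted p-values of the other 6 in limma ran from 4.17e-12 to 1.49e-07, and all 8 kept their direction under both other scalings. The count of higher genes includes those that passed the filter through the KD mutant alone. Of the 53 genes, St14, Mmp2 and Sort1 did not keep their direction under both quantile normalization and centring.

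**Figure D4:**
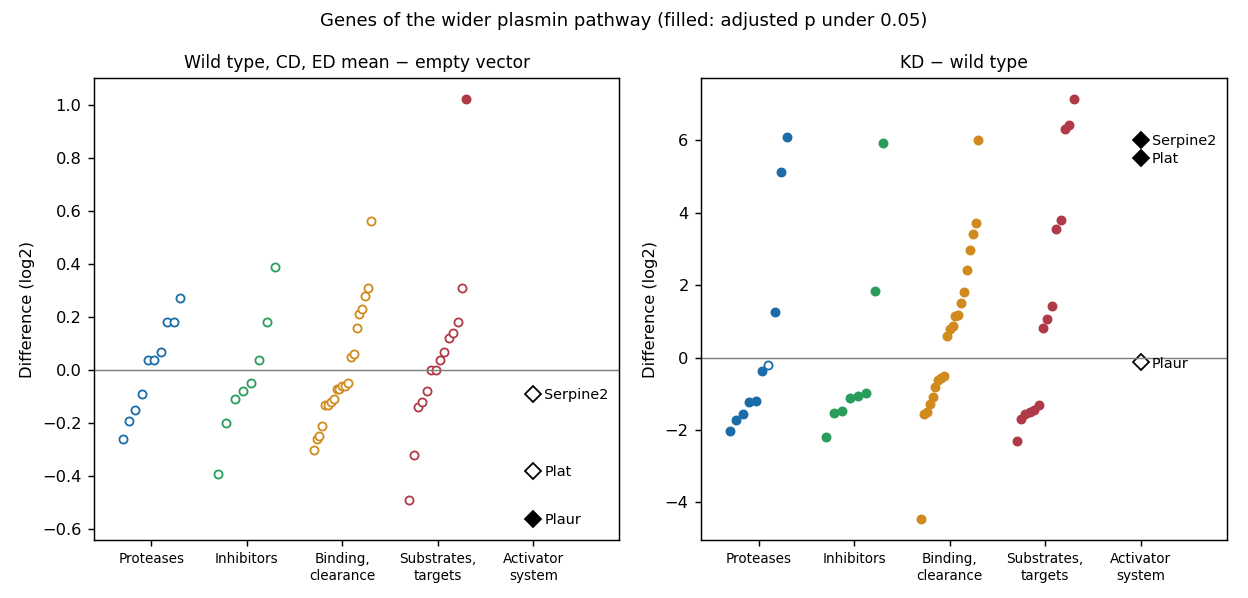
Differences in log2 RMA value (y axis) for the 53 tested genes of the wider plasmin pathway in 4 roles, each point a gene, and as diamonds the 3 tested members; the left panel compares the mean of wild type, CD and ED with empty vector and the right panel the KD mutant with wild type, on different scales. On the left Plaur and Fgb are filled, that is past the threshold, and on the right all points are but those of Plaur and Mmp2. On the right, Plat, Serpine2, F2r, Ltbp1 and any other gene that passed the filter through the KD mutant arrays could be filled only as higher. Their fill is not a result.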

How the data were processed

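Total RNA of 10 samples was hybridised to rat arrays. The deposited table holds log2 values that the authors obtained by RMA (the submitters' processing notes name it). The RMA version, and if the 10 arrays were processed as 1 set, are not stated by labels or notes. RMA corrects background, normalizes between arrays and shrinks differences at low signal. Array medians were 5.32 to 5.36, and 4.94 and 4.95 for the KD mutant.

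Of 31099 probe sets 57 controls were left out of the tests. The platform annotation gives 1 gene for 20826, several for 436 and none for 9780, and current symbols came by Entrez identifier from the GRCr8 RefSeq table. Probe sets reaching the 40th percentile on 2 arrays entered the limma 3.58.1 fit under R 4.3.3 (5 group means, 5 residual degrees of freedom, 11.4 after moderation), tested two-sided and adjusted by Benjamini-Hochberg. Intervals are unadjusted. The script was tested on simulated data.

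Members, lists and comparisons were chosen with earlier results of these data known. Named genes are all members and, of the pathway list, those that pass outside the KD mutant and the 4 largest rises and falls of KD mutant against wild type; the 3 best correlated genes are given per member. Each pathway gene is read by its brightest tested probe set. The main fit did not pair arrays by replicate number. The correlation of deviations between same-numbered arrays was -0.0287 to 0.143 and exceeded 0.1 in 1 of 10 pairs of groups. These values cannot show that the arrays were unpaired, so a fit with a replicate block was also run.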

Additional observations from a re-analysis of the deposited data

How the results depend on the processing

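The falls of Plaur kept their direction in the average of wild type, CD and ED against empty vector and in the CD mutant against empty vector under all alternatives run, but not always their call. In the CD mutant the number of changed member probe sets, 1 by the chosen settings, was 0 with no filter, 0 with a replicate block and 0 when only the 4 arrays compared were fitted; in the F-test over 4 groups it was 0 with no filter and 0 with the replicate block. With the replicate block, Plaur had an adjusted p of 0.0593 in the CD mutant and 0.0473 in the average (limma), with unchanged differences. With an intensity trend and robust variance, 1 member probe set changed in wild type and 1 in the ED mutant, in place of 0. Leaving out the KD mutant arrays kept the averaged call (adjusted p = 0.0186). Leaving out 1 array gave 0 to 0 in the average and in the F-test, 0 to 0 in the CD mutant, and 1 to 2 in the KD mutant against wild type, where Serpine2 reached the filter level on 1 array only and was not tested. With no filter the dim probe sets entered, and 6 changed in the KD mutant against empty vector, 5 against wild type and 6 against the mean of the other 4 groups. Of all 31042 non-control probe sets, 26897, 26816 and 27818 were called there, so these counts are near the background. Against empty vector, the dim Plaur probe set differed by -0.36 as deposited, 0.2 after quantile normalization and 0.02 after centring. In the same order, Plau 1387675_at differed by -0.45, 0 and -0.07, and 1398287_at by -0.68, -0.24 and -0.3. Centring on the array median turned Plaur in the KD mutant to 0.27 against wild type and to 0.09 against the mean of the other 4 groups, as it moves these arrays up by their lower median. Pathway genes changed in the average numbered 3 at a 60th percentile filter, 3 without the KD mutant arrays, 2 after quantile normalization, 3 when only the arrays compared were fitted and 6 with the trend, against 1. Calls over all tested probe sets moved with the settings too. Without the KD mutant arrays 0.543% were called in the average, against 0.2%. Whether the pathway counts moved beyond that background was not tested. Over all tested probe sets the number called was 25 in the CD mutant against empty vector (2 to 144 under other settings, 1 with an array left out), 45 in the average (27 to 263, and 2 to 18), 3 in wild type (1 to 68, and 1) and 119 in the ED mutant (85 to 493, and 19 to 37). It was 37 for ED against wild type (8 to 142, and 0 to 1) and 79 for ED against CD (43 to 287, and 12 to 31). Plat and Serpine2 entered those KD mutant counts through the KD mutant arrays. Signal near or below the filter level limits the values of Plau, Plat, Serpine2, F2r, Ltbp1, Fgg and Fga outside the KD mutant.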
